A study of Homo sapiens with 29 samples.

Results

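The place of RNA polymerase II (Pol II) 10 min after its release from DRB was compared between THOC5-depleted and control HEK293 cells, gene by gene, and these are called shTHOC5 and shCtrl cells below. The 2298 genes described here are those with a mean coverage of 100 rpm or more in both series, out of 4592 genes listed. HEK293 is a human embryonic kidney cell line. Its cells carried lentivirus for 4 days with either the control hairpin (shCtrl) or a hairpin against THOC5 (shTHOC5), and all of them spent 3.5 h in 100 μM DRB before the washes and the addition of 1 mM 4SU. Each condition and release time was 1 dish and 1 library, so 2 libraries are compared here, and 6 further libraries at 20, 30 and 40 min serve as context. With 1 library per condition and time no p-value is given, and the 95% intervals below cover the spread over genes and tell nothing of the spread between cultures. The listed genes are 60 to 300 kb wide and do not include THOC5, and so the depletion could not be checked here.

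DRB inhibits CDK9, the kinase of P-TEFb, which phosphorylates DSIF, NELF and the Pol II tail and so lets paused Pol II enter the gene body. When DRB is washed out, Pol II leaves the promoter-proximal region as a wave, and RNA labelled with 4SU, a uridine analogue that can be pulled down through its thiol group, marks where that wave has arrived. THOC5 is a subunit of the THO complex, which binds nascent RNA during elongation, is part of the TREX mRNA export complex and is known for limiting RNA:DNA hybrids.

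For each gene the deposited tables give the position of the called wave peak in a window that opens 2 kb before the transcription start site (TSS) and closes 120 kb after it. A peak at position 1 is called at the upstream edge of that window and is a limit of the call rather than a place where Pol II was seen. A peak at 120 kb is the opposite edge. Genes were therefore grouped by whether the 10-min peak was at position 1, and distances are compared only where it was off position 1 in both libraries. Below, held means called at position 1 and left means called off it, and neither word describes a state of Pol II. Peaks did not always move downstream with time. Of the 1464 genes off position 1 in shCtrl cells at 10 min, 621 (42.4%) had a peak nearer the TSS at 20 min than at 10 min, while 25.1% went back toward it from 20 to 30 min and 38.3% from 30 to 40 min. In shTHOC5 cells the 20-min peak was nearer than the 10-min peak in 268 of the 1052 genes off position 1 (25.5%). For the main results the value in the 899 genes whose peaks never moved upstream from 10 to 40 min in either series is given too. These ordered genes are chosen partly on the 10-min peak, since a gene at position 1 cannot move upstream at its first step, and they hold more such genes by construction.

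At 10 min after DRB release more genes were held at the window edge in shTHOC5 cells than in shCtrl cells. Position 1 held 834 genes in shCtrl (36.3%, Wilson 95% interval 34.4% to 38.3%) and 1246 genes in shTHOC5 cells (54.2%, 52.2% to 56.2%). In the 899 ordered genes it held 63.0% and 73.0%. The surplus was mirrored farther down the window. Between 2 and 10 kb from the TSS lay 200 and 151 control genes in the bins split at 5 kb, against 122 and 42 genes in shTHOC5 cells. Between the TSS and 2 kb the order was the other way, with 100 genes in shCtrl and 148 in shTHOC5 cells. Inside the gene but over 40 kb from the TSS, a peak was called for 393 genes in shCtrl and 182 in shTHOC5 cells. Beyond the annotated gene end the counts were closer, 423 and 373.

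**Figure D1:**
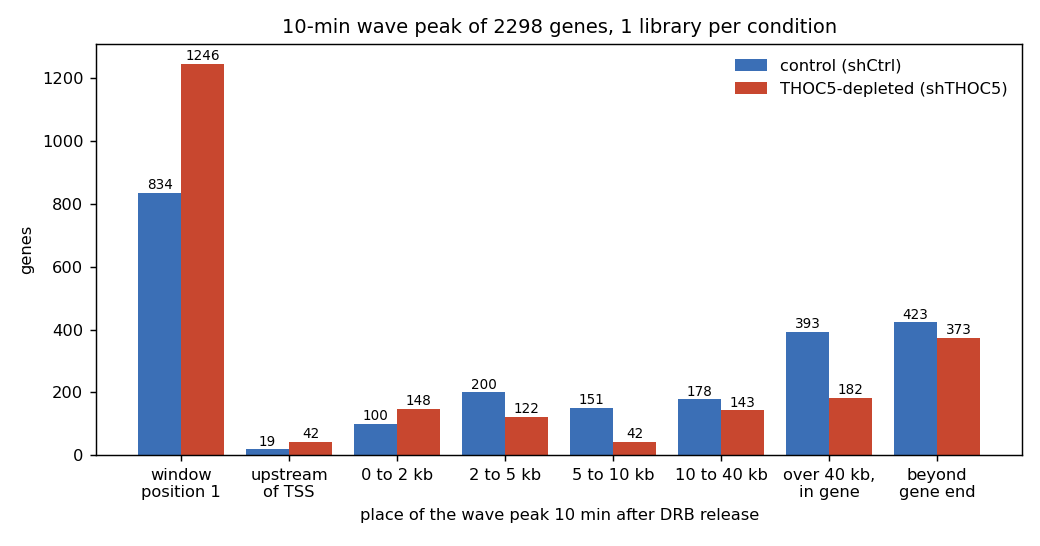
Number of the 2298 genes (vertical axis) by the place of the 10-min wave peak (horizontal axis) in the control library (blue) and the THOC5-depleted library (red), with the count on each bar. shTHOC5 cells had 1246 genes at position 1 against 834 in shCtrl, and fewer genes from 2 to 10 kb and over 40 kb inside the gene.

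Joining the 2 libraries by gene gave 4 classes. In 796 genes (34.6%) the peak was at position 1 in both libraries, and in 1014 (44.1%) it was off position 1 in both. In 450 genes (19.6%, 18.0% to 21.3%) it was at position 1 in shTHOC5 cells only, while in 38 genes (1.65%, 1.21% to 2.26%) it was at position 1 in shCtrl cells only. Over all 4592 listed genes these single-series shares were 18% and 4.29%. The share held in shTHOC5 cells only was thus near that of all listed genes, and the share held in shCtrl cells only was lower among the genes of 100 rpm or more. Of the 1464 genes that had left position 1 in shCtrl cells, 450 had not left it in shTHOC5 cells. Among the 899 genes with ordered peaks, 105 (11.7%, 9.74% to 13.9%) were at position 1 in shTHOC5 cells only and 15 (1.67%) in shCtrl only.

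**Figure D2:**
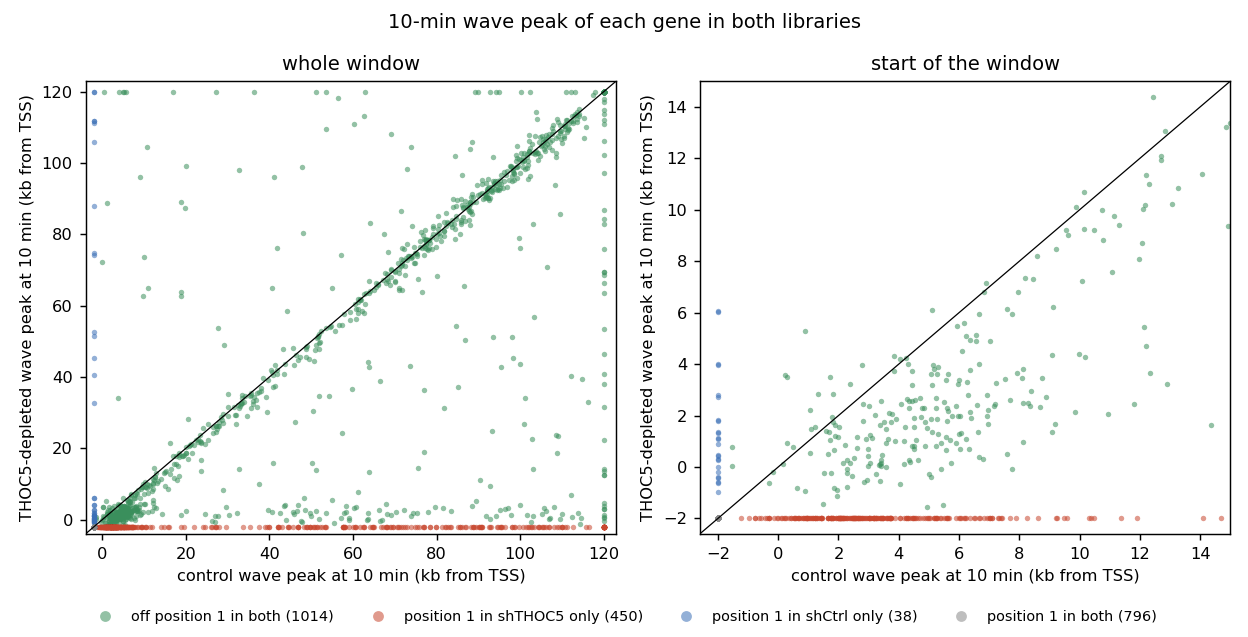
Wave peak at 10 min in shCtrl (horizontal axis, kb from the TSS) against shTHOC5 cells (vertical axis, kb from the TSS), 1 point per gene, over the whole window (left) and its first part (right), with the line of equal position in black and the class in colour. The 450 red genes run along the lower edge, the 38 blue genes along the left edge, and most green points within 15 kb of the TSS lie below the line.

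Annotated start sites of genes from the 4 classes are printed here. They are RefSeq promoters of GRCh38.p14, from 250 bases before to 50 after the RefSeq start, and were chosen for high coverage in their class and, except for GPBP1L1 and CHD8, after their values were seen. Capitals mark the TATA box (TATAAA), the CCAAT box, the GC box (GGGCGG) and an ETS-type site (CCGGAAG) on either strand, none of which overlap here. The first 3 belong to genes at position 1 in shTHOC5 cells only, namely TOP1 (chr20:41028572-41028871, plus strand), UBE2K (chr4:39697886-39698185, plus strand) and GPBP1L1 (chr1:45686484-45686783, minus strand). CHD8 (chr14:21437226-21437525, minus strand) and PAPOLA (chr14:96502126-96502425, plus strand) were at position 1 in shCtrl only, SMAD6 (chr15:66701986-66702285, plus strand) was off position 1 in both, and TAF12 (chr1:28643018-28643317, minus strand) was at position 1 in both.
TOP1: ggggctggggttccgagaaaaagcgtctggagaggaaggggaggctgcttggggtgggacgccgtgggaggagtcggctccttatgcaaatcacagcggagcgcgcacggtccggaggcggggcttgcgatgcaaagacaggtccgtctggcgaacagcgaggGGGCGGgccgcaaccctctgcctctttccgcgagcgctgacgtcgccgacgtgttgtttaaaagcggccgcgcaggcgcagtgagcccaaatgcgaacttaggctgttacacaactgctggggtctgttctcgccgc
UBE2K: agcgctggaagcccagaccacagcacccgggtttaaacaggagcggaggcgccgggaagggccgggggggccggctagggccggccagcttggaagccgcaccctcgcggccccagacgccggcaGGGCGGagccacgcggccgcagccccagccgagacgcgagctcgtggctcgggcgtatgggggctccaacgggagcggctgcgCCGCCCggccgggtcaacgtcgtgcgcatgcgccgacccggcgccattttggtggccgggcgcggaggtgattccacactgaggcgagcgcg
GPBP1L1: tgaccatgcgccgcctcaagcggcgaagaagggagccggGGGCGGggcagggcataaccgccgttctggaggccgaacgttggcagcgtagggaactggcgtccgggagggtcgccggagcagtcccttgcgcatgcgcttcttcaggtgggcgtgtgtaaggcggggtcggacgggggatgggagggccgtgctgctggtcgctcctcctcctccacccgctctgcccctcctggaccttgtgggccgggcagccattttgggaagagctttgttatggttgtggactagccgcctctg
CHD8: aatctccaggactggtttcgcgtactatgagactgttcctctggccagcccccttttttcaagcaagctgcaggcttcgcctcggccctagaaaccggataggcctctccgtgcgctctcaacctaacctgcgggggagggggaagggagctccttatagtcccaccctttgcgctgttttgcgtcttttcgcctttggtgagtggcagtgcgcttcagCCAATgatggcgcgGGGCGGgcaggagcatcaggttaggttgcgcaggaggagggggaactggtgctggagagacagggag
PAPOLA: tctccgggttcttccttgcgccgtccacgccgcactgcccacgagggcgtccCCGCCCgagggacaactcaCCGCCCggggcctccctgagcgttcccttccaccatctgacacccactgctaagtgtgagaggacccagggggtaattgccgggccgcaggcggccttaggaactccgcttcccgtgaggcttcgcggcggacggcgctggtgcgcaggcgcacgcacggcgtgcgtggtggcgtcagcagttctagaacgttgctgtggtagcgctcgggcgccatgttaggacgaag
SMAD6: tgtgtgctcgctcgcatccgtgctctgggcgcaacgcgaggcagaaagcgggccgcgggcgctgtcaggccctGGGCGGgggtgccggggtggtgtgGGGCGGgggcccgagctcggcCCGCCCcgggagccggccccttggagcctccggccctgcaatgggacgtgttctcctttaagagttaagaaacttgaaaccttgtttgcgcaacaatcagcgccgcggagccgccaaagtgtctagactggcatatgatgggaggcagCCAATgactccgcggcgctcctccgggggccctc
TAF12: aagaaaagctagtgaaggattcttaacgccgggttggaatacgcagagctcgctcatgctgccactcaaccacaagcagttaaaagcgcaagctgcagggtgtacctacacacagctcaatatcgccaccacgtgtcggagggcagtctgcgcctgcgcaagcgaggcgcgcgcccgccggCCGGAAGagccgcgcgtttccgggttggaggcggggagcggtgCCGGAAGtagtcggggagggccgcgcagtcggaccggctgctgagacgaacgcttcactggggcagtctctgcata

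The RefSeq start was the TSS of the window in TOP1 and SMAD6 and lay 27 bp from it in UBE2K, 943 bp in PAPOLA, 1580 bp in GPBP1L1, 5224 bp in TAF12 and 18851 bp in CHD8. UBE2K has 2 GC boxes, starting 125 and 42 bases before the RefSeq start, and TAF12 has 2 CCGGAAG matches, starting 69 and 26 bases before it. TOP1 has a single GC box, starting 87 bases before its start. These letters are matches in a window and do not show a bound factor.

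The 450 genes held in shTHOC5 cells only were not all of one kind in shCtrl cells. In 230 of them (51.1%) the control peak lay inside the gene within 10 kb of the TSS, with 67 genes at 0 to 2 kb, 116 at 2 to 5 kb and 47 at 5 to 10 kb. In 14 it was upstream of the TSS and in 27 between 10 and 40 kb. In the other 179 (39.8%) the control peak was far away, in 113 inside the gene beyond 40 kb and in 66 beyond the gene end, of which 32 were at the end of the window.

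In the 230 genes with a control peak within 10 kb of the TSS, the later libraries showed a wave in both series. Their median control peak was at 2.79 kb at 10 min and moved on to 5.50, 7.95 and 9.56 kb at the 3 later times. In shTHOC5 cells the medians at those later times were 3.61, 5.60 and 7.79 kb. The 20-min peak of these genes was nearer the TSS in shTHOC5 cells in 180 genes (78.3%) and the 40-min peak in 166 (72.2%). These genes were therefore mostly still nearer the TSS in shTHOC5 cells at the later times, with a median difference of -2.31 kb at 20 min and -1.55 kb at 40 min. That order was not particular to the 230 genes. Among all genes off position 1 in both series, 64.5% were nearer in the 20-min libraries and 59.2% in the 40-min libraries. Where both peaks lay downstream of the TSS, inside the gene and within 40 kb, the shares were 73.9% and 65.9%, with genes chosen anew each time.

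TOP1, the type I topoisomerase that relieves supercoils around moving Pol II, was at 2.71 kb in shCtrl and position 1 in shTHOC5 cells at 10 min. Its 20-min peak was at 8.87 kb in shCtrl and 6.20 kb in shTHOC5 cells, and its 30-min peak at 11.2 kb against 8.65 kb. Its coverage was 969 rpm in shCtrl and 1202 rpm in shTHOC5 cells, 1 value per series that is not the coverage of the 10-min library alone.

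UBE2K, a ubiquitin-conjugating enzyme, was at 7.39 kb in shCtrl at 10 min and at position 1 in shTHOC5 cells. Its later peaks were at 8.58 kb, 10.0 kb and 10.2 kb in shCtrl and at 4.21 kb, 7.23 kb and 8.61 kb in shTHOC5 cells. UBE2K lies on the plus strand at chr4:39698109-39782792, and its control peak at 10 min fell in the gene, clear of any other annotated gene. RANBP10, a Ran-binding protein, was at 3.24 kb in shCtrl at 10 min and position 1 in shTHOC5 cells. At 40 min RANBP10 had reached 8.67 kb in shCtrl and 6.14 kb in shTHOC5 cells. The same order held for THRAP3, a splicing and mRNA-associated factor, with 3.03 kb in shCtrl at 10 min and, at 20 min, 4.88 kb in shCtrl against 0.831 kb in shTHOC5 cells.

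Not every gene of this kind kept that order. PSPC1, the paraspeckle protein, was at 1.97 kb in shCtrl and position 1 in shTHOC5 cells at 10 min, and at 5.67 kb against 6.70 kb at 20 min. At 40 min PSPC1 was farther in shTHOC5 cells, at 10.0 kb against 7.22 kb. WNK1, a kinase that regulates ion transport, was at 5.57 kb and position 1 at 10 min, but at 20 min it was at 3.18 kb in shCtrl and 5.35 kb in shTHOC5 cells. For MTHFD1, a folate-cycle enzyme, the successive control peaks were out of order, at 6.50 kb, 4.95 kb, 34.5 kb and 6.86 kb. The error of a single gene's call is unknown with 1 library per time.

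In the 179 genes with a far control peak, the control call was not steady over time. At 20 min the control peak had gone back toward the TSS in 143 of them (79.9%), and its median, 85.6 kb at 10 min, was 5.92 kb in the 20-min library, but 46.6 kb and 16.9 kb in the 30-min and 40-min libraries. GPBP1L1, which has the highest coverage of the 450 genes, kept a far call. Its control peaks stayed near 100 kb, at 99.8 kb, 98.3 kb, 99.2 kb and 96.4 kb, beyond the gene end and inside NASP, a histone chaperone gene. The THOC5-depleted peak of GPBP1L1 was at position 1 at 10 min and at 99.3 kb at 20 min. POM121, a nuclear pore membrane protein, was at position 1 in shTHOC5 cells at 10 min and at the end of the window in the other 7 libraries. SCAF4, which binds the Pol II tail and prevents early polyadenylation, was called at 68.1 kb in shCtrl at 10 min, beyond its end at SOD1, and within 1 kb of that place at every other time in both series. For such genes the call moved between the window edge and a neighbouring gene, so it gives no distance along the gene itself.

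SAE1, a subunit of the SUMO-activating enzyme and also among the genes of highest coverage, was at 24.0 kb in shCtrl and at position 1 at 10 and 20 min in shTHOC5 cells, then at 23.7 kb and 26.6 kb.

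Most of the 450 genes had left position 1 by the next release time. In shTHOC5 cells 344 of them (76.4%) were first off position 1 at 20 min, 60 at 30 min and 31 at 40 min, while 15 never left it. In control cells 64 of the 450 were back at position 1 at 20 min. Over all 2298 genes, 174 were at position 1 in shTHOC5 cells only at 20 min, 150 at 30 min and 62 at 40 min, and the counts in shCtrl only were 114, 73 and 67. The excess in shTHOC5 cells was therefore seen at 10 min, with 450 against 38 genes, and not at 40 min.

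**Figure D3:**
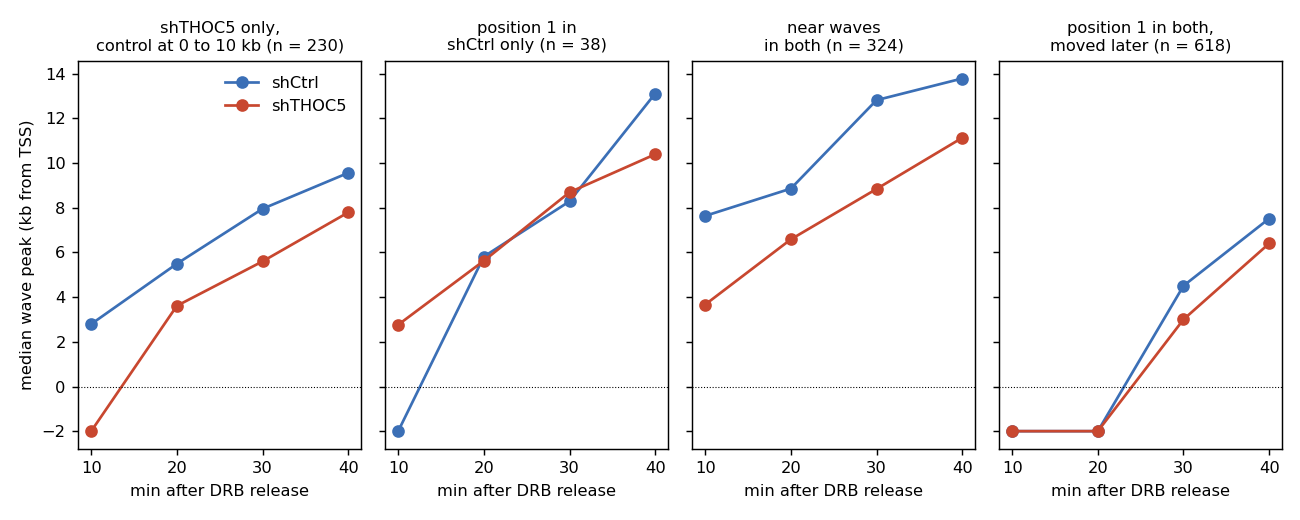
Median wave peak (vertical axis, kb from the TSS) against the time after DRB release (horizontal axis, min) in shCtrl (blue) and shTHOC5 cells (red) for 4 groups of genes chosen on their 10-min peaks, with no error bars because each point is 1 library. In the 230 genes of the first panel the THOC5-depleted median stayed below that of control, and in the 38 genes of the second panel the medians met at 20 min.

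The 38 genes held in shCtrl cells only were of lower coverage in shCtrl. In shTHOC5 cells their 10-min peak was upstream of the TSS in 6, at 0 to 2 kb in 12, at 2 to 10 kb in 6, at 10 to 40 kb in 1, farther inside the gene in 5 and beyond the gene end in 8. Their median coverage was 207 rpm in shCtrl and 319 rpm in shTHOC5 cells, and it was higher in shTHOC5 cells in 33 of the 38. In control 31 of them were off position 1 at 20 min, and the medians at 20 min were 5.81 kb in shCtrl and 5.63 kb in shTHOC5 cells.

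Several of high coverage were called at neighbouring genes. CHD8, a chromodomain helicase, lies at chr14:21385194-21456126 on the minus strand. Its THOC5-depleted peak at 10 min was at 74.7 kb, beyond the gene end and inside SUPT16H, which encodes a FACT subunit, and at 20 min it was back at position 1. TUT7, a terminal uridylyltransferase, was called at 74.1 kb, at ISCA1, and PEMT, a phospholipid methyltransferase, at 112 kb, at MED9. RSRP1 was called at 106 kb, at SYF2. ENSG00000112096, which has the highest coverage of the 38 and no symbol in the annotation used here, was called within its listed width of 93.5 kb, at 32.7 kb in shTHOC5 cells at 10 min and at 31.5 kb in shCtrl at 20 min.

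Other genes of this class had a peak close to their own start. MIER1, a transcriptional regulator, was at 6.06 kb in shTHOC5 cells and at position 1 in shCtrl at 10 and at 20 min. PAPOLA, the canonical poly(A) polymerase, was at -0.397 kb in shTHOC5 cells, upstream of its TSS and within 500 bp of the lncRNA gene PAPOLA-DT. At 20 min PAPOLA was at 3.36 kb in shCtrl and 3.89 kb in shTHOC5 cells. PHF3, which binds the Pol II tail, was at 1.31 kb in shTHOC5 cells and at 4.72 kb at 20 min against 2.06 kb in shCtrl. USP47, a deubiquitinase, was at 1.83 kb at 10 min and at 6.21 kb against 4.24 kb at 20 min. Thus PHF3 and USP47 were farther from the TSS in shTHOC5 cells at 20 min, the reverse of TOP1, while position 1 in shCtrl at 10 min gives no distance. Their coverage was 207 rpm and 191 rpm in shCtrl and 482 rpm and 428 rpm in shTHOC5 cells.

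In the 1014 genes off position 1 in both libraries, the peak was on balance nearer the TSS in shTHOC5 cells. It was nearer in 678 genes (66.9%, 63.9% to 69.7%), farther in 260 and at the same position in 76, all of them at the end of the window. Over all listed genes off position 1 in both, 58% were nearer and 34.1% farther. The median difference, shTHOC5 minus shCtrl, was -1.37 kb (-1.60 to -1.10). It was -0.997 kb in the ordered genes, -0.719 kb with no coverage minimum and -2.67 kb where both peaks were inside the gene. In 317 genes the peak was nearer by 1 to 5 kb, in 112 by 5 to 40 kb and in 119 by more than 40 kb. It was farther by 1 to 5 kb in 97 genes, by 5 to 40 kb in 40 and by more than 40 kb in 30.

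The size of the shift depended on where the peaks lay. In 324 genes both peaks were inside the gene, downstream of the TSS and within 40 kb of it, and these near waves were nearer the TSS in shTHOC5 cells in 281 genes (86.7%). Their median peak was at 7.64 kb in shCtrl and 3.67 kb in shTHOC5 cells, with a median difference of -2.01 kb (-2.49 to -1.78) and a median ratio of the distances of 0.709. In the 92 of these with ordered peaks, 81 were nearer and the median difference was -1.81 kb (-2.002 to -1.31). In 519 genes both peaks were far, beyond 40 kb or the gene end, and the median difference was 0 kb, with 251 nearer and 192 farther. A further 110 genes were far in shCtrl and near in shTHOC5 cells, and 22 the other way round.

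Among the near waves the median difference was smallest in the groups nearest to and farthest from the TSS. With both peaks averaged, 37 genes at 0 to 2 kb had a median difference of -1.15 kb, 108 at 2 to 5 kb had -2.89 kb and 56 at 5 to 10 kb had -2.87 kb. The 53 genes at 10 to 20 kb had -1.91 kb and the 70 genes at 20 to 40 kb had -1.06 kb. These groups are made from the same 2 peaks, and both peaks had to lie between the TSS and 40 kb. That bounds the difference in the first and last groups, so the medians cannot show how the shift changes with distance.

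Near waves of high coverage showed this shift at 10 min. PSMB7, a catalytic proteasome subunit, was at 5.89 kb in shCtrl and 0.923 kb in shTHOC5 cells. GRB2, the adaptor of receptor tyrosine kinases, was at 11.1 kb in shCtrl and 7.59 kb in shTHOC5 cells, and SMAD6, an inhibitor of BMP signalling, was at 4.43 kb and 2.58 kb. The control peak of GRB2 lay within 500 bp of a lncRNA gene, ENSG00000265342. At 20 min GRB2 and PSMB7 were farther in shTHOC5 cells, at 10.9 kb against 8.97 kb and 6.63 kb against 3.40 kb, and SMAD6 was still nearer, at 5.30 kb against 6.70 kb.

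CROCC, the rootletin gene, had the highest coverage of all, with 7.36% of the coverage of the whole table in shCtrl and 8.00% in shTHOC5 cells. Its peak was at 12.8 kb in shCtrl and 13.0 kb in shTHOC5 cells and stayed between 12.8 and 13.5 kb at all times. CROCC has close copies in the genome, its RefSeq start lies 181658 bp from the TSS of the window, and its value is uncertain.

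The largest shifts toward the TSS among near waves came from control peaks that lay 27.8 to 39.8 kb into the gene. TNC, the matrix protein tenascin C, was at 39.8 kb in shCtrl and 2.64 kb in shTHOC5 cells. ATP2A2, the SERCA calcium pump, was at 30.3 kb and 1.39 kb, and HPRT1, the purine salvage enzyme, at 27.8 kb and 1.11 kb. In each of these the control peak was nearer the TSS at 20 min than at 10 min, at 6.71 kb, 6.87 kb and 2.72 kb. TMEM164 went from 32.3 kb in shCtrl to 1.78 kb in shTHOC5 cells, and MCCC2, a subunit of methylcrotonyl-CoA carboxylase, from 37.6 kb to 9.98 kb.

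The shifts away from the TSS were smaller with 1 exception. INSR, the insulin receptor, was at 3.67 kb in shCtrl and 34.2 kb in shTHOC5 cells at 10 min, but at 9.08 kb and 4.01 kb at 20 min. The next were C1S, a complement protease, with 20.5 kb in shCtrl and 28.2 kb in shTHOC5 cells, and ADA, adenosine deaminase, with 30.1 kb and 35.3 kb. At both places another gene overlaps, LPCAT3 in C1S and PKIG in ADA. WDR37 was at 0.899 kb in shCtrl and 5.29 kb in shTHOC5 cells, and ZDHHC11B at 16.3 kb and 21.4 kb.

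The order of the 10-min and later peaks differed between the series in near waves. In control 98 of the 324 genes (30.2%) had a 20-min peak nearer the TSS than the 10-min peak, against 34 (10.5%) in shTHOC5 cells. The peak moved downstream at every step in 105 genes (32.4%) in shCtrl and 247 (76.2%) in shTHOC5 cells. Where it moved downstream from 10 to 20 min, the median step was 2.84 kb in shCtrl (226 genes) and 2.97 kb in shTHOC5 cells (290 genes). These steps are from different genes and leave out those that went back. Over all 324 near waves the median went from 7.64 to 8.86 kb in shCtrl and from 3.67 to 6.59 kb in shTHOC5 cells. Chosen anew at each time, near waves had a median difference of -1.48 kb at 20 min (872 genes), -1.37 kb at 30 min (955 genes) and -0.965 kb at 40 min (1101 genes).

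Far peaks were more often at other genes than near peaks, which lie inside their own gene by definition. Of 774 far control peaks whose place could be annotated, 472 (61.0%) were within 500 bp of another annotated gene, against 77 of 604 near peaks (12.7%). In shTHOC5 cells it was 392 of 528 far peaks (74.2%) and 61 of 433 near peaks (14.1%). Of these far peaks only 369 in shCtrl and 174 in shTHOC5 cells were inside their own gene. Part of the contrast therefore follows from the definition, and no share for other places in the window was computed. In 335 of the 519 genes far in both, both peaks were beyond the gene end. ARHGEF2 is an example, called at 75.4 kb in shCtrl and 74.5 kb in shTHOC5 cells, at KHDC4. UBE2E1, a ubiquitin-conjugating enzyme, was called at 113 kb in both, at RPL15 and NKIRAS1. SLC5A10, RALY and KPNA6 were at the end of the window in both libraries at 10 min. HNRNPC, the nuclear ribonucleoprotein C, changed from far to near, with 45.8 kb in shCtrl and 1.72 kb in shTHOC5 cells, and with 6.21 kb and 4.41 kb at 20 min.

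The genes at position 1 in both libraries included some that never moved. At 20 min 296 of the 796 were off position 1 in shCtrl and 274 in shTHOC5 cells, and 178 were at position 1 at every time in both series. NEMF, a ribosome quality control factor, and TAF12, a TFIID and SAGA subunit, had the highest coverage, at 2240 and 1912 rpm in shCtrl and 1930 and 1612 rpm in shTHOC5 cells. Both were at position 1 in all 8 libraries. RPL37A, a ribosomal protein gene, left it once, at -0.310 kb in shTHOC5 cells at 20 min, and ENSG00000276076 never did. In the 618 genes that moved later, the 30-min medians were 4.51 kb in shCtrl and 3.00 kb in shTHOC5 cells, and the 40-min medians 7.52 kb against 6.40 kb.

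ENAH, OSBPL3 and USP24 are among the genes that the study names. ENAH, an actin regulator, and USP24, a deubiquitinase, were at position 1 in both libraries at 10 min. OSBPL3, an oxysterol-binding protein, was at 99.999 kb in shCtrl and 4.12 kb in shTHOC5 cells. At the 3 later times OSBPL3 was farther in shTHOC5 cells, at 7.34, 9.74 and 10.9 kb against 5.09, 2.19 and 8.44 kb in shCtrl.

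Position 1 went with an annotated neighbour on the other strand. The stretch from the TSS to 2 kb upstream overlapped a gene on the opposite strand in 1024 of 2194 genes (46.7%), those whose width equalled the GENCODE annotation. Among genes at position 1 at every time in both series it did so in 154 of 171 (90.1%, 84.7% to 93.7%). TAF12 was one of these, while NEMF had a neighbour on its own strand instead. Among genes at position 1 in both at 10 min that moved later it was 334 of 589 (56.7%), and in those held in shCtrl only 19 of 37 (51.4%). Among genes held in shTHOC5 cells only, it was 78 of 169 (46.2%) where the control peak was far and 71 of 223 (31.8%, 26.1% to 38.2%) where it lay within 10 kb. In near waves it was 107 of 310 (34.5%). The genes held in shTHOC5 cells with a near control peak thus resembled near waves in this respect and not the genes that never moved. Whether signal of the neighbouring gene set the call at position 1 was not tested.

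The start of the window itself differed too. The canonical transcript began over 1 kb from the TSS of the window in 140 of 310 near waves (45.2%) and in 10 of 223 genes (4.48%) held in shTHOC5 cells with a control peak within 10 kb. In all 2194 genes it did so in 493 (22.5%). For such genes the distance from the TSS of the window is not the distance from the main start.

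**Figure D4:**
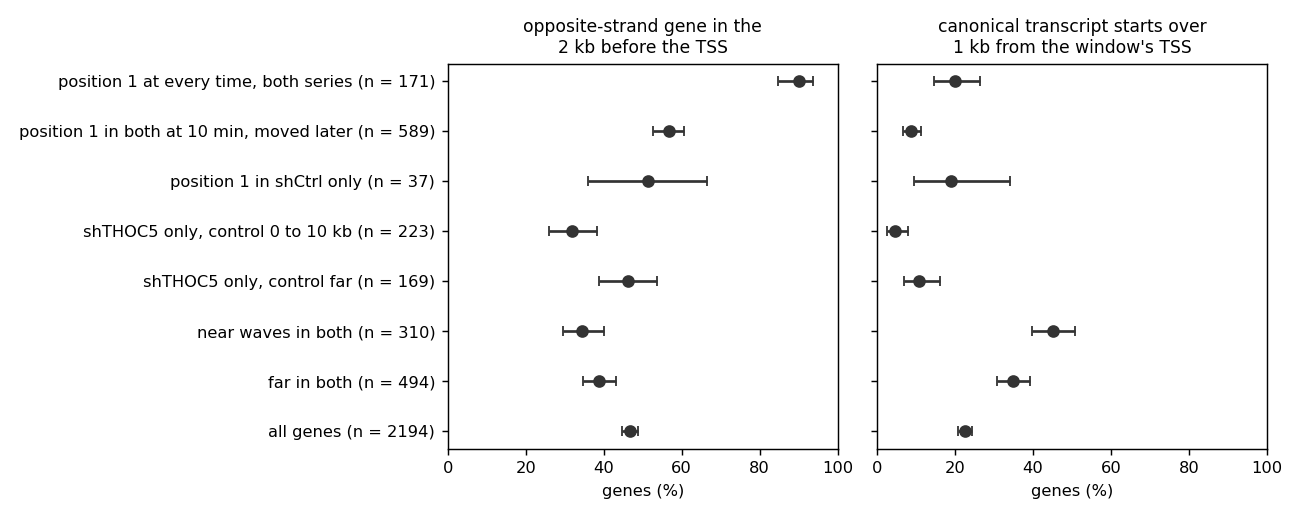
Share of genes (horizontal axis, %) with an annotated gene on the opposite strand in the 2 kb before the TSS (left) and with a canonical transcript that starts over 1 kb from the TSS of the window (right), for 8 groups of genes, with Wilson 95% intervals over genes. Genes at position 1 at every time stand at 90.1% on the left, and near waves at 45.2% on the right.

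Promoter letters varied between the classes as well. RefSeq promoters were found for 1877 of the 2298 genes and compared with 27305 promoters in all. Over these 1877 genes the GC box was found in 74.2%, the ETS-type site in 16.9% and the NRF1 motif in 3.57%. The TATA box was in 4.53% of them and the CCAAT box in 35.6%. For the GC box, the TATA box and the NRF1 motif, most of the difference from all promoters was thus common to the 1877 genes. CCGGAAG on either strand was found in 22.7% of genes at position 1 in both, 20.5% of genes held in shTHOC5 cells only, 11.0% of genes off position 1 in both and 2 of 33 genes held in shCtrl only, against 10.7% of all promoters. GGGCGG was found in 72.6%, 79.8%, 72.6% and 26 of 33, against 44.6% of all promoters. TATAAA was found in 3.65%, 4.26%, 5.30% and 2 of 33, against 12.0%, and CCAAT in 39.4%, 33.0%, 33.7% and 13 of 33, against 35.7%. The NRF1 motif was in 3.50%, 5.05%, 2.96% and 1 of 33, against 1.36%. The GC share of the first 2 kb had a median of 50.6% in genes at position 1 in both, 53.0% in those held in shTHOC5 cells only and 53.5% in those off position 1 in both.

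The share held in shTHOC5 cells only was 18.3% of 723 genes of 60 to 80 kb, 18.6% of 797 genes of 80 to 120 kb, 22.3% of 560 genes of 120 to 200 kb and 20.6% of 218 genes of 200 to 300 kb. Of the genes off position 1 in shCtrl, far calls included, it was 26.8%, 28.8%, 38.2% and 34.4%, higher in both wider groups. The share held in shCtrl only was 1.38%, 1.88%, 1.25% and 2.75% in the same order. Over all genes off position 1 in both, the median difference was -0.330 kb in the narrowest and -2.45 kb in the widest genes, a contrast of -2.12 kb. The share of far control peaks, however, fell from 74.2% to 37.2% over the same widths. In near waves alone the medians were -2.67 kb, -1.77 kb, -2.15 kb and -2.15 kb, and the contrast turned to 0.52 kb.

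By coverage, position 1 in both held 41.6% of genes in the lowest quartile of mean coverage and 20.5% in the highest. The share held in shTHOC5 cells only was 17.7%, 18.5%, 19.7% and 22.4% from the lowest to the highest quartile. Split by width, it rose at every step only in genes of 120 to 200 kb, with 17.0%, 20.2%, 25.4% and 30.3%. In genes of 60 to 80 kb it was 17.1%, 16.8%, 19.2% and 19.0%. In genes of 80 to 120 kb it was 16.9%, 18.9%, 15.8% and 22.6%, and in those of 200 to 300 kb 22.2%, 15.9%, 22.4% and 26.3%. Over all widths, the share held in shTHOC5 cells among genes off position 1 in shCtrl was 31.4%, 32.0%, 31.6% and 28.7%. In near waves the median difference was -1.78 kb, -1.63 kb, -2.06 kb and -2.85 kb, and the intervals of the lowest quartile (-2.23 to -1.15) and the highest (-3.79 to -2.01) overlapped. At the coverage threshold itself, ANKS6 and DCBLD2 were just inside, with a lower value of 100.2 rpm in both, and USP12 and FAM168A just outside, at 99.95 and 99.9 rpm.

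The ratio of the coverages of a gene in the 2 series moved with its class. It had a median of 0.888 (shTHOC5 over shCtrl) in the 450 genes held in shTHOC5 cells only, 1.42 in the 38 genes held in shCtrl only and 1.01 in all 2298. In the 239 genes with a ratio under 0.67, 30.1% were held in shTHOC5 cells only and 0.837% in shCtrl only. In the 315 genes with a ratio over 1.5, these shares were 8.57% and 5.08%. The median difference of near waves went from -3.86 kb (41 genes) to -0.648 kb (43 genes, interval -2.54 to 0.273) over the same range. Among the 1744 genes with coverage within 1.5 times between the series, 20.1% were held in shTHOC5 cells only and 1.15% in shCtrl only, and the near median was -1.99 kb. The deposited coverage is 1 value per gene and series, so whether a different amount of labelled RNA moved the call of the 10-min peak was not tested.

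**Figure D5:**
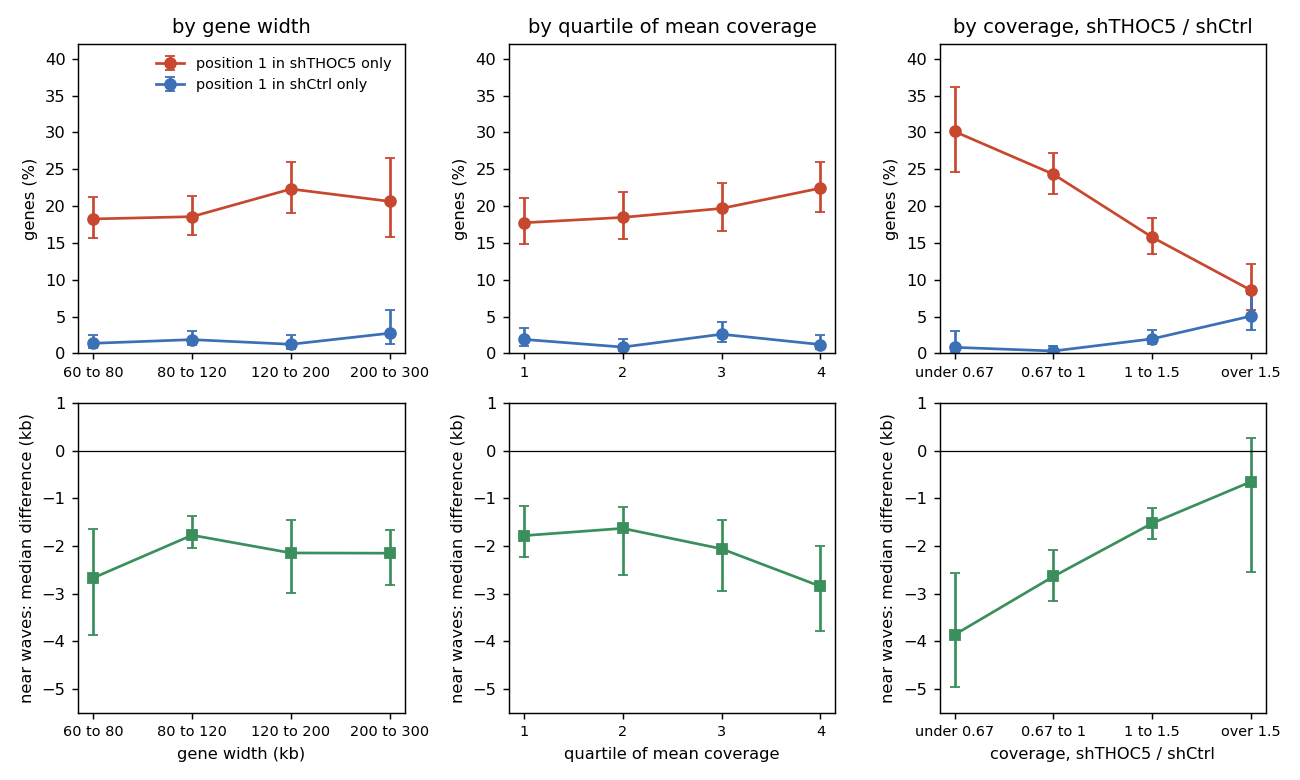
Top, share of genes (%) at position 1 in shTHOC5 cells only (red) and in shCtrl only (blue); bottom, median difference of near waves (kb, shTHOC5 minus shCtrl), by gene width, quartile of mean coverage and ratio of coverages, with 95% intervals over genes. The red share lies between 17.7% and 22.4% over widths and coverage quartiles and falls from 30.1% to 8.57% over the ratio.

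Groups of genes with a shared role were compared by their counts, beside 19.6% of all 2298 genes held in shTHOC5 cells only, 1.65% in shCtrl only and 34.6% in both. Of all genes that had left in both 66.9% were nearer in shTHOC5 cells, as were 86.7% of near waves, whose median was -2.01 kb. Of 28 genes of Pol II elongation and pause release, 8 were held in shTHOC5 cells only, none in shCtrl only, 11 in both, and 9 had left in both. Among the 8 were AFF4, RPRD2, SETD2, MED14, GTF2F2, IWS1 and ZC3H13. ZC3H13 belongs to the m6A RNA methyltransferase complex and is not an elongation factor, but it is counted in the 28 and the 8. SETD2, the H3K36 methyltransferase that travels with Pol II, was at 0.512 kb in shCtrl, IWS1, a partner of the elongation factor SPT6, at 2.08 kb and GTF2F2, a TFIIF subunit, at 1.80 kb. AFF4, the scaffold of the super elongation complex, was at 95.5 kb in shCtrl, a far call, as were MED14 at 64.5 kb and ZC3H13 at 57.6 kb. Of the 9 that had left, 7 were nearer the TSS in shTHOC5 cells, among them the elongation factor ELL with 5.07 kb in shCtrl and 1.86 kb in shTHOC5 cells, and RTF1 of the PAF complex was at 9.88 kb and 10.1 kb.

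Of 14 genes for RNA helicases and R loop factors, 5 were held in shTHOC5 cells only, namely TOP1, AQR, DHX57, TOP2B and ERCC6. AQR, a helicase of the spliceosome, was at 0.977 kb in shCtrl, ERCC6, a repair factor for stalled Pol II, at 1.79 kb, and TOP2B and DHX57 had far control peaks. Of 26 genes from a list of THO, TREX, nuclear pore and nuclear transport genes, 7 were held in shTHOC5 cells only. Of the 8 that had left in both, 7 were nearer. The only THO or TREX gene among the 26 was THOC2, which was at position 1 in both, and the others were nucleoporins and nuclear transport receptors. The export receptor XPO1 was at 7.09 kb in shCtrl, the importin KPNA1 at 7.41 kb, XPO6 at 5.41 kb and the nucleoporin NUP155 at 3.40 kb. NUP93, also held in shTHOC5 cells only, had a far control peak at 81.9 kb. IPO7, an importin, was off position 1 in both, at 6.97 kb in shCtrl and 1.66 kb in shTHOC5 cells.

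Of 55 chromatin modifiers and remodellers, 15 were held in shTHOC5 cells only and 2, CHD8 and PHF3, in shCtrl only. SMARCC1, a core SWI/SNF subunit, was at 1.73 kb in shCtrl, the acetyltransferase CREBBP at 1.66 kb, BAZ1B of the WICH complex at 3.32 kb and NSD2, an H3K36 methyltransferase, at 4.52 kb. SMARCA4, EP300, KAT6B and DNMT3A, also held in shTHOC5 cells only, had far control peaks, at 76.9 kb, 120 kb, 109 kb and 51.3 kb. Of the 19 that had left in both, 15 were nearer in shTHOC5 cells, and all 9 near waves were, with a median of -2.54 kb. TRRAP, a scaffold of acetyltransferase complexes, was at 5.25 kb in shCtrl and 0.824 kb in shTHOC5 cells, EP400 at 5.91 kb and 2.38 kb, and ARID1A at 6.55 kb and 5.15 kb.

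Of 91 genes of the ubiquitin system, 22 were held in shTHOC5 cells only and 1 in shCtrl only, and 12 of 15 near waves were nearer. Of the 34 that had left in both, 22 were nearer, 10 farther and 2 at the same position. HUWE1, a large ubiquitin ligase, was at 6.26 kb in shCtrl and 3.30 kb in shTHOC5 cells, and the deubiquitinase USP10 at 7.18 kb and 2.45 kb. Of 39 genes of DNA repair and replication, 7 were held in shTHOC5 cells only, 1 in shCtrl only and 21 in both. Of the 10 repair and replication genes that had left in both, 7 were nearer and 3 farther, with a median difference of -0.845 kb. XRCC5, the Ku80 subunit, was at 7.92 kb in shCtrl and 3.65 kb in shTHOC5 cells. NBN, among those farther, was at 19.9 kb and 99.1 kb, the latter a far call beyond the end of this gene of 69898 bp. At 20 min its control peak was at 98.4 kb. Of 7 genes of 3′ end processing, 2 were held in shTHOC5 cells only, WDR33 with a control peak at 3.60 kb and SCAF4, and PAPOLA was held in shCtrl only. Of 76 listed ion channels and receptors only 5 reached 100 rpm in both series, and 1 of them, KCNC4, was held in shTHOC5 cells only, with a control peak at 4.03 kb.

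The ZNF genes, mostly transcription factors of the zinc finger family, had other counts. Of 36, 4 were held in shTHOC5 cells only (11.1%), none in shCtrl only and 15 in both. Of the 17 that had left in both, 8 were nearer, 7 farther and 2 at the same position, with a median difference of 0 kb. Only 1 of the 6 near waves was nearer, ZNF608, with 6.38 kb in shCtrl and 2.15 kb in shTHOC5 cells. ZNF292 was at 5.09 kb in shCtrl and 6.12 kb in shTHOC5 cells, ZNF28 at 1.73 kb and 3.52 kb, and ZNF331 at 24.0 kb and 25.6 kb. The coverage of ZNF28 was 353 rpm in shCtrl and 675 rpm in shTHOC5 cells, and that of ZNF292 was 174 rpm and 379 rpm. These are 6 genes, and no test sets them apart from the other lists.

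The study's own lists come from polyA site choice in other libraries of these conditions. Of its THOC5-dependent genes, 194 are among the 2298, and 35 of them (18.0%) were held in shTHOC5 cells only, 3 in shCtrl only and 93 off position 1 in both. Of those 93, 76 were nearer in shTHOC5 cells, with a median difference of -3.35 kb, and the 46 near waves had a median of -3.13 kb. Of its THOC5 independent genes 36 are members, of which 6 (16.7%) were held in shTHOC5 cells only, none in shCtrl only and 13 off position 1 in both. Their median difference was -0.332 kb, with 8 nearer and 3 farther, while in the 8 near waves it was -4.79 kb with 7 nearer. CAPZB, an actin-capping subunit from this list, was at 6.34 kb in shCtrl and 0.687 kb in shTHOC5 cells, the latter within 500 bp of MICOS10. The shares held in shTHOC5 cells only were close to 19.6% in both lists, and the order of their medians turned between all genes off position 1 and near waves.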

How the data were processed

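DRB/TTchem-seq was analysed in the 10-min libraries of shCtrl and shTHOC5 HEK293 cells, 1 library each. The 20, 30 and 40 min libraries were used as context, and the study's other samples were not analysed here. The authors sequenced the labelled RNA from both ends, scaled the coverage by library depth and called wave peaks with a published pipeline. The submitters' processing notes name CASAVA 1.8.2, Bowtie2 2.3.4.1, deepTools 2.0 and minimap2 for the study as a whole, without saying which was used for these libraries. Peaks were deposited as whole-number positions (bp) in a window that begins 2 kb before the TSS. The deposited coverage is named for RPKM but sums to 1000000 over the genes and was read as RPM. Reads per library, and so the precision that depth gives, are unknown, and whether the coverage is strand-specific is not given in the sources used here.

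From these tables, peaks were expressed as distances to the TSS (kb) and the series were joined by gene identifier. A near wave lay downstream of the TSS, inside the gene and within 40 kb of the TSS in both libraries. Shares have Wilson and medians binomial order-statistic 95% intervals over genes, which are not independent replicates. Of the 4592 identifiers, 4590 were matched to a symbol, and in 4416, 2194 of them among the 2298 genes, the width equalled GENCODE release 44 on GRCh38. Promoters came from RefSeq.

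The genes and gene lists were chosen with earlier results of these data known. Named genes were some that the study names, the 8 of highest coverage in each single-series class, the 4 at position 1 in both, the 5 largest differences each way and the 5 of highest coverage among near waves, the 3 of highest coverage at an identical position, the highest in each list and those beside the threshold. Some genes and 1 gene list that were analysed are not reported here. Other genes named, the split of the 450 genes by control position and the genes at position 1 at every time were chosen after their values were seen. Alternatives changed the coverage minimum, the limit of position 1, the near limit, the average and the genes included. The functions were tested on simulated data. The scripts ran in Python 3.11.15 with scipy 1.17.1 and pandas 2.3.3, beside numpy 2.4.6, and matplotlib 3.10.9 drew the plots.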

Additional observations from a re-analysis of the deposited data

How the results depend on the processing

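The main limits are 1 library per condition and time, unknown read depth and a call that stops at both edges of the window. No paired analysis was possible because there is 1 library for every condition and time, and for the same reason no library could be left out. Of 66 alternatives 44 moved a value by less than its interval, 21 moved it further and 1 turned the direction. Some of the 44 could not move a value. Near waves lie downstream of the TSS and inside the gene by definition, so settings on these points kept the same 324 genes. The cause of a move was not tested unless the genes included differ by construction. The direction turned for the median difference of genes of 200 to 300 kb minus that of 60 to 80 kb, from -2.12 kb to 0.52 kb in near waves only. The contrast between the highest and the lowest coverage quartile moved from -0.203 kb to -1.06 kb in near waves only. Position 1 held 36.3% of shCtrl and 54.2% of shTHOC5 genes, which became 33.8% and 47.5% with no coverage minimum, 30.7% and 50.3% with a minimum of 200 rpm, 45.0% and 64.2% with wave peaks inside the gene, and 63.0% and 73.0% with peaks that never moved upstream. The share at position 1 in shTHOC5 only moved from 19.6% to 18.0% with no minimum and 11.7% with peaks that never moved upstream. The share in shCtrl only moved from 1.65% to 4.29% with no minimum and 1.15% with coverage within 1.5 times. Off position 1 in both, the median difference of -1.37 kb became -0.719 kb with no minimum, -2.67 kb with peaks inside the gene, -0.997 kb with peaks that never moved upstream and -8.17 kb as a mean. The share nearer the TSS moved from 66.9% to 58.0% with no minimum and 84.7% inside the gene. For near waves the median of -2.01 kb became -1.74 kb with no minimum and -3.04 kb as a mean.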
